A study of Mus musculus with 11 samples.

Results

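Receptors for the constant part of IgG and the kinases that act below them were measured in the skin of mice after bone marrow transplant. The genes were taken by symbol: every symbol that begins with Fcgr, with Syk and Btk, which gave 6 of the 754 genes of the panel, namely Fcgr1, Fcgr2b, Fcgr3, Fcgr4, Syk and Btk. The IgE receptor gene Fcer1a was set aside by the same rule, and Fcer1g and Lyn, which the rule also names, are not analysed here. All 6 genes lay above background in all 11 mice.

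Fc gamma receptors bind antibody that coats cells, microbes or immune complexes, and they sit on macrophages, monocytes, neutrophils, dendritic cells, mast cells and B cells. Fcgr1, Fcgr3 and Fcgr4 encode the ligand-binding chains of activating receptors, which pass their signal through the immunoreceptor tyrosine-based activation motif (ITAM) of a partner chain, whereas Fcgr2b encodes the inhibitory receptor. A Src family kinase phosphorylates the ITAM, the tyrosine kinase Syk binds to it, and Btk, a kinase of the Tec family found in B cells and myeloid cells, then acts on phospholipase C gamma. Btk is a target of inhibitors used in chronic graft-versus-host disease (GVHD), and Fc receptors on skin macrophages are among the ways in which deposited antibody can act on a tissue.

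There were 3 groups of female recipients aged 8 to 10 weeks. The syngeneic group (3 mice) and the allo-WT group (3 mice) were C57BL/6j recipients, and the allo-MCd group (5 mice) were B6.Cg-KitW-sh/HNihrJaeBsmGlliJ recipients, which are deficient in mast cells because of the W-sh allele at the Kit locus. All recipients were given 850 cGy of radiation, bone marrow cells and splenocytes intravenously, and skin of the nape was taken after 7 weeks. The allogeneic groups had LP/J donors. Syngeneic donors were C57BL/6J by the methods, but LP/J is the donor on the label of every mouse. The W-sh allele is carried by all cells of the recipient and not by cells of the donor, and the probes do not separate recipient from donor RNA. Skin was measured in bulk, so that fewer cells of a type and less RNA per cell cannot be told apart. From each mouse, 100 ng of RNA was counted with NanoString probes on the Myeloid Innate Immunity panel, and values are given as the deposited normalized counts. The recovered counts summed to between 831632 and 1460260 in each mouse. In allo-WT mouse 1 the strongest positive control gave 3975 counts, below the range of 17615 to 33547 in the other mice, and its total was the lowest.

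Mice were compared on log2(value + 1) in limma, with 696 genes tested in 1 fit. Genes whose adjusted p was 0.05 or below were called. The median gene itself differed by -0.72 for allo-MCd minus allo-WT, by 0.21 for allo-WT minus syngeneic and by -0.59 for allo-MCd minus syngeneic on this scale. Differences were therefore also computed with every mouse scaled to the same median gene (median scaling), where those medians were 0.10, -0.02 and -0.01. The 3 comparisons share mice, and the p-values measure the spread between the mice of a group in 1 series.

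All 6 genes were called lower in allo-MCd than allo-WT skin, as were 50% of all genes tested. The windows around the starts of the 6 genes were searched for GAGGAA, the core motif of PU.1, a transcription factor of myeloid and B cells. They were also searched for TTCNNNGAA, the gamma-activated site bound by interferon-activated STAT factors. Windows ran from 250 bases before to 50 bases after each RefSeq start (GRCm38.p6), on both strands. GAGGAA was found in 28.1% of all 32544 distinct windows of this length, and 31.2% of the 27025 genes had it in at least 1 window. Of the 6 genes, 5 had it in at least 1 window, with 2 windows each for Fcgr3 and Syk, and Fcgr2b had none. In Btk, Fcgr1, Fcgr3 and Fcgr4 it lay on the opposite strand and so reads TTCCTC on the gene's own strand. Capitals mark the match in the sequences below, and its position is counted from the start as base 1.
Fcgr1, chr3:96293989-96294054, minus strand, match at -55: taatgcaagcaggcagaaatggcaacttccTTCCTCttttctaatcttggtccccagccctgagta
Fcgr3, chr1:171059374-171059439, minus strand, match at -6: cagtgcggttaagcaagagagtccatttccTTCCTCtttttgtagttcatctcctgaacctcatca
Fcgr4, chr1:171018874-171018939, plus strand, match at -22: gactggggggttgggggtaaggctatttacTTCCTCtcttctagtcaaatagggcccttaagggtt
Btk, chrX:134583096-134583161, minus strand, match at 10: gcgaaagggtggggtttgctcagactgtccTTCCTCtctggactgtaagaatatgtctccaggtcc
Syk, chr13:52596843-52596908, plus strand, match at -9 of the downstream of its 2 starts: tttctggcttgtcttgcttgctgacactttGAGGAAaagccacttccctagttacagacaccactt

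The Fcgr3 match lay at -15 when counted from its other annotated start, and the upstream window of Syk had no match. The site TTCNNNGAA was found in 8.33% of all windows and in 9.55% of the genes and, among these genes, in Fcgr1 alone, at -109, where it did not overlap the GAGGAA match.
Fcgr1, chr3:96294040-96294108, minus strand: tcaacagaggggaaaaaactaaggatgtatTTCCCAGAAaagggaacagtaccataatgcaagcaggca

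A match is a stretch of letters and not a measured binding site. The shares given are over all RefSeq windows and genes, and shares among the panel's genes were not computed. Fcgr2b, Fcgr4 and Fcgr3 are consecutive protein-coding genes on chromosome 1, Fcgr1 lies on chromosome 3, Syk on chromosome 13 and Btk on chromosome X.

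Between the allogeneic groups, the allo-MCd mice had less of all 6 genes, each called and with no overlap between the groups. Of all genes tested, 50% were called lower in this comparison and 46% were lower without overlap. Under median scaling these shares were 30.6% and 26%, and all 6 genes were still called and apart. The median difference of the 6 was -3.09, or -2.27 under median scaling. Between allo-WT and syngeneic skin, the 4 receptors were called higher and the 2 kinases were not called, against 28.3% of all genes called higher, or 25.1% under median scaling. The receptors and Syk were higher without overlap, against 33.6% of all genes. Under median scaling the 4 receptors were, against 27.2%. Between allo-MCd and syngeneic skin, 5 of the 6 were called lower without overlap and Fcgr4 was not, against 36.9% of all genes called lower and 37.4% lower without overlap. Under median scaling 4 of the 6 were called and apart, against 13.5% called and 18% apart.

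**Figure D1:**
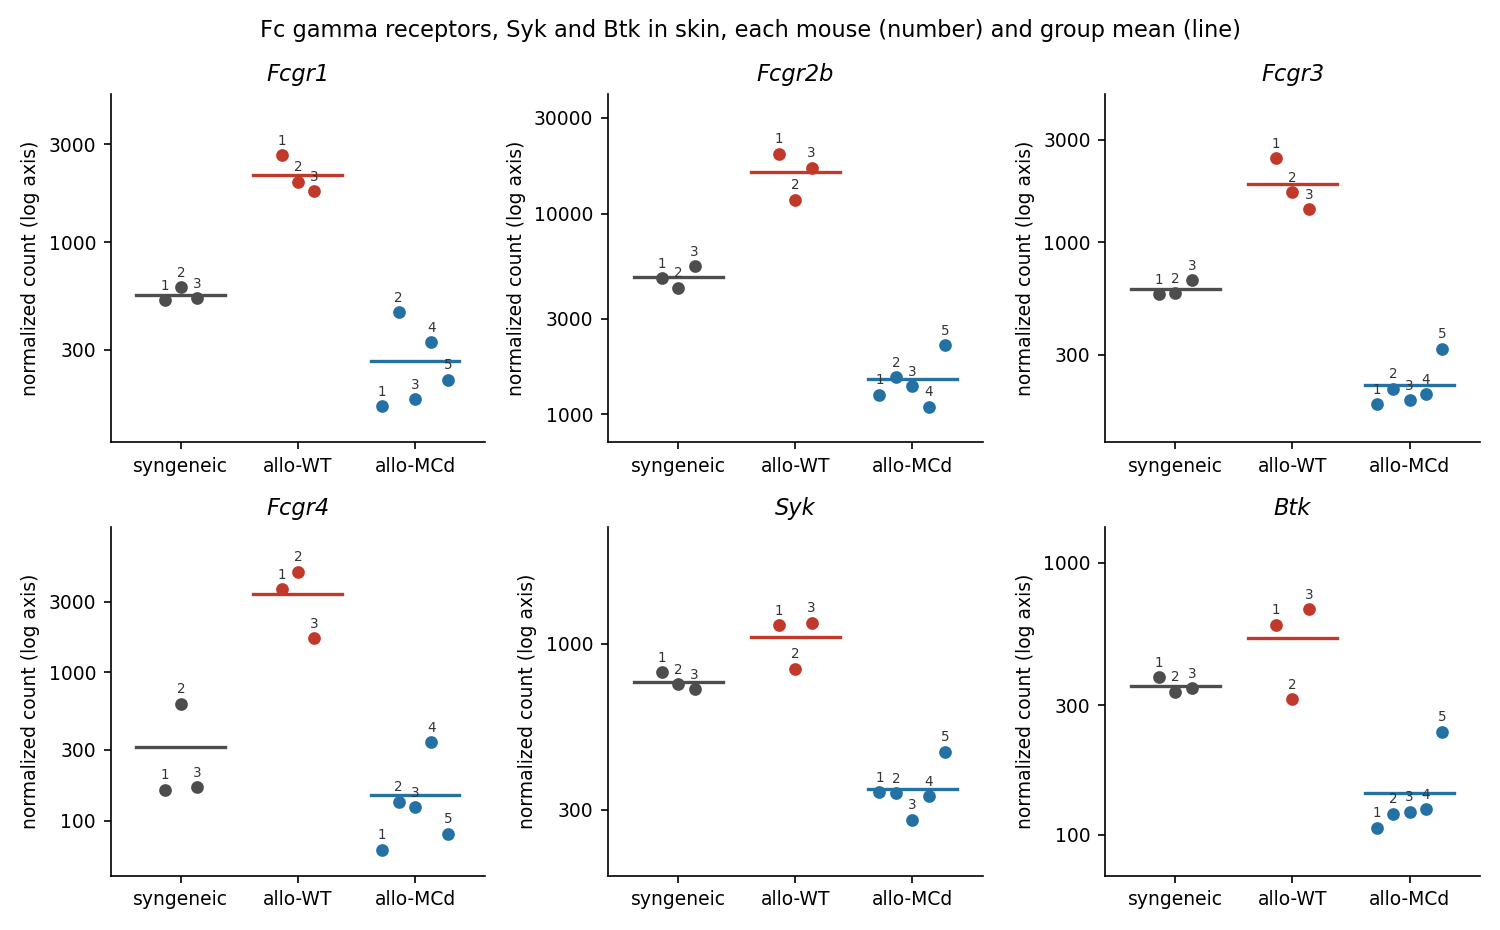
Normalized count of each gene in each mouse, on a log axis that differs between panels. Points are mice, with the mouse number above, and lines are group means. All 5 allo-MCd mice lie below all 3 allo-WT mice for every gene, and the syngeneic mice lie between them except for Btk and Fcgr4, where they overlap 1 of the groups.

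Among the activating receptors, Fcgr1 encodes the high-affinity receptor for IgG of monocytes and macrophages. It was measured at 522, 607 and 535 normalized counts in the syngeneic mice, at 2652, 1973 and 1772 in the allo-WT mice, and at 160.2, 458, 173, 327 and 215 in allo-MCd mice 1 to 5. The 3 groups did not overlap, although allo-MCd mouse 2 lay close to the syngeneic mice. Fcgr1 was 8.53-fold lower in allo-MCd mice than allo-WT mice (log2 difference -3.09, SE 0.32, adjusted p = 7.59e-06; -2.27 under median scaling). It was 3.79-fold higher in allo-WT than syngeneic skin (1.92, SE 0.36, adjusted p = 0.00138; 1.69 under median scaling). The difference between allo-MCd and syngeneic skin, -1.17 (SE 0.32, adjusted p = 0.0127), was not called under median scaling (-0.58, adjusted p = 0.221), where the groups overlapped.

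Fcgr3 encodes the low-affinity activating receptor that mast cells, macrophages and natural killer cells share. Its values were 573, 579.9 and 667 for syngeneic, 2464, 1714 and 1426 for allo-WT and 177, 209.5, 185, 197 and 321 for allo-MCd mice. The groups were apart in every comparison, and the highest allo-MCd mouse, mouse 5, reached 321 against 573 in the lowest syngeneic mouse. The log2 difference was -3.09 (SE 0.24, adjusted p = 9.41e-07) between allo-MCd and allo-WT skin and -2.27 under median scaling. Fcgr3 was higher in allo-WT than syngeneic skin by 1.59 (SE 0.27, adjusted p = 0.000818) and by 1.35 under median scaling. Allo-MCd minus syngeneic was -1.51 (SE 0.24, adjusted p = 0.00135), and -0.92 under median scaling, still called (adjusted p = 0.00536).

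Fcgr4 encodes an activating receptor of monocytes, macrophages and neutrophils. On the log2 scale it spread most widely of the 6 genes, with values of 162, 614 and 169 for syngeneic, 3643, 4777 and 1699 for allo-WT and 63.8, 134, 123, 337 and 81.7 for allo-MCd mice. Allo-WT mice lay above all others, while syngeneic mouse 2 and allo-MCd mouse 4 stood above the rest of their groups. Fcgr4 was 24.8-fold lower in allo-MCd than allo-WT skin (log2 difference -4.63, SE 0.57, adjusted p = 3.06e-05), a difference that ranked 9 from the lowest of the 696 genes, and it was -3.81 under median scaling. It was 12-fold higher in allo-WT than syngeneic skin (3.59, SE 0.64, adjusted p = 0.00119), ranking 16 from the highest, and 3.35 under median scaling or 4.22 without syngeneic mouse 2. The allo-MCd and syngeneic groups overlapped, and the difference of -1.04 was not called (adjusted p = 0.157, 95% interval from -2.29 to 0.21). Leaving out syngeneic mouse 2 brought it to -0.41.

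The inhibitory receptor gene Fcgr2b gave 4769, 4275 and 5468 for syngeneic, 19857, 11712 and 16935 for allo-WT and 1253, 1531, 1377, 1089.6 and 2204 for allo-MCd mice. The 3 groups were apart, with the highest allo-MCd mouse below the lowest syngeneic mouse and the highest syngeneic mouse below the lowest allo-WT mouse. It had the smallest adjusted p of the 6 genes in the allogeneic comparison, with a log2 difference of -3.45 (SE 0.24, adjusted p = 8.03e-07), or -2.62 under median scaling. It was 3.28-fold higher in allo-WT than syngeneic skin (1.71, SE 0.27, adjusted p = 0.000572; 1.48 under median scaling). Allo-MCd minus syngeneic was -1.73 (SE 0.24, adjusted p = 0.00107), and -1.14 under median scaling (adjusted p = 0.00189). Mouse Fcgr2b and Fcgr3 encode outer domains of closely similar sequence, and the probe sequences were not used here, so whether a probe counts both was not tested.

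Syk, which docks on phosphorylated ITAMs, was measured at 811, 745 and 719 for syngeneic, 1141, 834 and 1164 for allo-WT and 341, 338, 279, 330.2 and 457 for allo-MCd mice. Allo-MCd mice lay below both other groups, and allo-WT mouse 2 lay just above the highest syngeneic mouse. The log2 difference was -1.58 (SE 0.20, adjusted p = 3e-05) between the allogeneic groups, or -0.76 under median scaling (adjusted p = 0.00278). Between allo-WT and syngeneic skin it was 0.45, not called (adjusted p = 0.107, 95% interval from -0.03 to 0.92), and under median scaling the groups overlapped. Allo-MCd minus syngeneic was -1.13 (SE 0.20, adjusted p = 0.00161), or -0.54 under median scaling (adjusted p = 0.0398).

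Btk gave 380.1, 335 and 345 for syngeneic, 591, 315 and 676 for allo-WT and 106, 119.6, 122, 124 and 239 for allo-MCd mice. Allo-WT mouse 2 fell below all syngeneic mice, while all allo-MCd mice lay below both other groups and mouse 5 stood above the rest of them. Btk was 3.67-fold lower in allo-MCd than allo-WT skin (log2 difference -1.88, SE 0.31, adjusted p = 0.000245), or -1.05 under median scaling (adjusted p = 0.00258). The difference between allo-WT and syngeneic skin, 0.50, was not called (adjusted p = 0.240, 95% interval from -0.25 to 1.26), and it lay between 0.29 and 0.84 with a mouse of these groups left out, not called in any case. Allo-MCd minus syngeneic was -1.37 (SE 0.31, adjusted p = 0.00477), or -0.78 under median scaling (adjusted p = 0.0339).

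**Figure D2:**
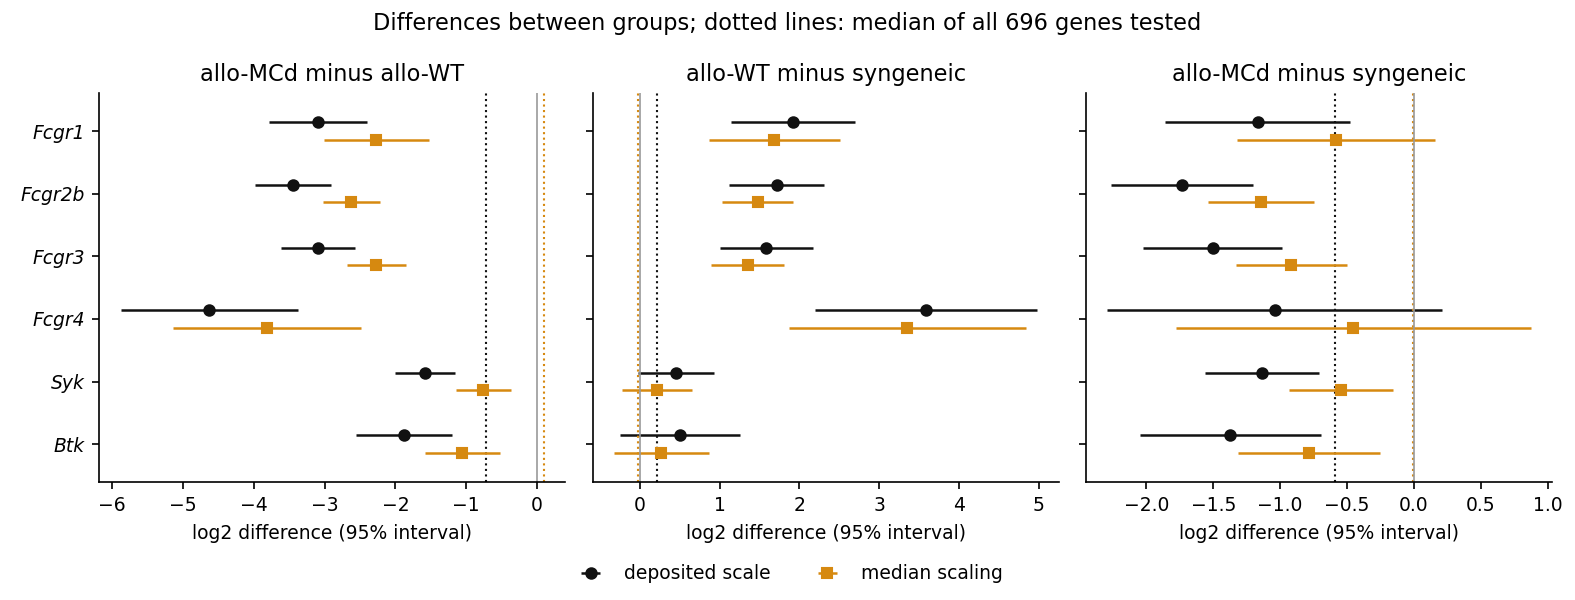
Log2 difference of each gene in the 3 comparisons, with 95% intervals from limma, on the deposited scale (circles) and under median scaling (squares). Dotted lines are the median of all 696 genes on the same scale. In the left panel all 12 intervals lie below 0. In the middle panel the receptors lie above 0, and the intervals of Syk and Btk include it.

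In each comparison, leaving out each mouse of its own groups in turn changed no call of a member gene. Between the allogeneic groups, the two-sided exact permutation test of each gene gave p = 0.0179, the smallest p that 3 mice against 5 allow. Between allo-WT and syngeneic skin 3 mice against 3 cannot go below an exact permutation p of 0.1, which Fcgr1, Fcgr2b, Fcgr3, Fcgr4 and Syk each reached. In the same comparison Btk had an exact permutation p of 0.4. By the methods' test on the deposited values, the same 6 genes were called lower in allo-MCd than allo-WT skin. For allo-WT against syngeneic skin that test also called Syk (3-group test with Tukey's comparison, p = 0.0252 without adjustment, not a permutation test), which did not pass after Benjamini-Hochberg adjustment (0.0739). For allo-MCd against syngeneic skin Syk was the 1 member it called.

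To see whether the receptors moved by unlike amounts, and Btk unlike Syk, ratios were taken within each mouse, where the factor that scales a mouse cancels. The log2 ratio of Fcgr4 to Fcgr2b was -4.87, -2.80 and -5.01 for syngeneic, -2.45, -1.29 and -3.32 for allo-WT and -4.28, -3.50, -3.48, -1.69 and -4.74 for allo-MCd mice. The groups overlapped, and its mean differed by 1.88 between allo-WT and syngeneic mice (exact permutation p = 0.2) and by -1.18 between allo-MCd and allo-WT mice (exact permutation p = 0.196). The ratio of Fcgr1 to Fcgr2b was -2.90, -2.57 and -3.26 in allo-WT mice and lay near those values in allo-MCd mice 1, 3 and 5, but was -1.74 and -1.73 in allo-MCd mice 2 and 4. The ratio of Fcgr3 to Fcgr2b ranged from -3.57 to -2.46 over all mice. The ratio of Btk to Syk lay between -1.15 and -1.06 for syngeneic, between -1.40 and -0.78 for allo-WT and between -1.67 and -0.93 for allo-MCd mice. Over 4 ratios and 3 comparisons, 12 tests in all, the groups overlapped each time and the smallest adjusted p of the exact permutation tests was 0.459, so unequal change within these pairs was not detectable with these numbers of mice.

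Ratios of each receptor to each kinase were added after the values were seen. The log2 ratio of Fcgr2b to Syk was 2.55, 2.52 and 2.92 in syngeneic, 4.12, 3.81 and 3.86 in allo-WT, and 1.88, 2.17, 2.30, 1.72 and 2.27 in allo-MCd mice. The 3 groups did not overlap, and the mean ratio differed by -1.86 between allo-MCd and allo-WT mice and by 1.26 between allo-WT and syngeneic mice. Of the 8 receptor to kinase ratios, 6 were lower without overlap in allo-MCd than allo-WT mice, with differences of all 8 from -3.05 to -1.22. All 8 were higher without overlap in allo-WT than syngeneic mice, by 1.08 to 3.14. Between allo-MCd and syngeneic mice 2 of the 8 were apart, those of Fcgr2b and Fcgr3 to Syk. Over these 24 exact permutation tests, the smallest adjusted p was 0.0714, so none passed after adjustment. Those of allo-WT against syngeneic mice could not pass, since 3 mice against 3 cannot give an exact permutation p below 0.1.

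**Figure D3:**
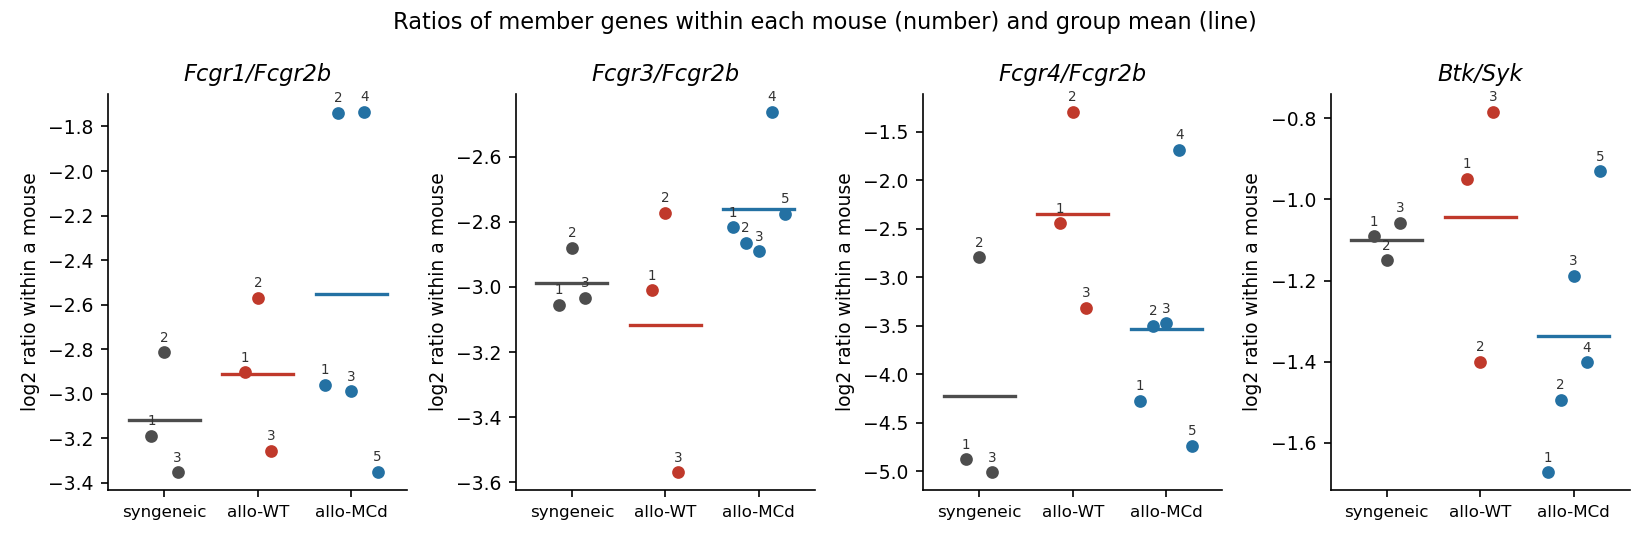
Log2 ratio of normalized counts of 2 genes within each mouse, for Fcgr1, Fcgr3 and Fcgr4 over Fcgr2b and for Btk over Syk. Points are mice with their numbers and lines are group means. All panels show overlap between the groups, and allo-MCd mice 2 and 4 stand highest for Fcgr1 over Fcgr2b.

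The other genes of the pathway were taken from lists of Fc receptors, Src and Tec kinases, ITAM adaptors and receptors, signalling adaptors, inhibitory receptors and the phagocyte oxidase. Of 113 symbols listed, 26 were measured and 24 tested. The 24 include the IgE receptor genes Fcer1a and Ms4a2, which are counted again among the mast cell markers. The allo-MCd recipients are deficient in mast cells by design. Between allo-MCd and allo-WT skin, 20 of the 24 were called lower and 1 higher, with a median difference of -2.06. Under median scaling 15 were lower and 3 higher, with a median of -1.25. Of all genes tested, 50% were called lower, or 30.6% under median scaling. Between allo-WT and syngeneic skin 10 were called higher and 1 lower, with a median of 0.60. Under median scaling 9 were higher and 2 lower, with a median of 0.37. Of all genes, 28.3% were called higher, or 25.1% under median scaling. From syngeneic to allo-MCd skin 17 were called lower and none higher, with a median of -1.09, and under median scaling 9 lower and 1 higher. Of all genes, 36.9% were called lower, or 13.5% under median scaling. The count called in either direction for allo-WT against syngeneic skin was 4 without allo-WT mouse 1 and 6 without syngeneic mouse 3. It was 7 without syngeneic mouse 2 or allo-WT mouse 3. The count for allo-MCd against syngeneic skin was 11 without syngeneic mouse 1 or 3.

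Among the ITAM genes, 6 of 7 tested were called lower in allo-MCd than allo-WT skin and 5 under median scaling, where 50% and 30.6% of all genes tested were. Tyrobp, the ITAM adaptor of many myeloid receptors, had means of 5392 normalized counts for syngeneic, 11130 for allo-WT and 1608 for allo-MCd mice, and differed by -2.74 between the allogeneic groups (-1.91 under median scaling). Trem1, a Tyrobp-linked receptor of neutrophils and monocytes, differed by -3.17 (-2.45 under median scaling) but was above background in none of the 5 allo-MCd mice. Clec5a, another receptor that signals through an ITAM adaptor, differed by -2.98 (-2.16 under median scaling), and Clec7a, the beta-glucan receptor that recruits Syk through its own tail, by -2.95 (-2.12 under median scaling). In allo-WT against syngeneic skin, the largest called changes of this list were those of Trem1 (2.45), Clec5a (1.84) and Clec7a (1.14), with Trem1 above background in none of the 3 syngeneic mice.

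Of the 8 adaptors and lipid signalling genes, 7 were called lower in allo-MCd than allo-WT skin, against 50% of all genes. Under median scaling 3 were lower and 1 was higher. The 3 are a share near the 30.6% of all genes called lower on that scale. Vav1, the exchange factor phosphorylated below Syk, was called higher in allo-WT than syngeneic skin (0.90, adjusted p = 0.0201) and lower in allo-MCd than syngeneic skin (-1.21, adjusted p = 0.00317, or -0.62 and 0.0356 under median scaling). It was the 1 gene of these 8 called in the former comparison, where 28.3% of all genes were called higher. Lat2, an adaptor of mast cells, B cells and myeloid cells, differed by -1.51 between allo-MCd and syngeneic skin (adjusted p = 0.00148), and Was and Pik3cg by -1.42 each. Under median scaling these 3 differences were -0.92, -0.83 and -0.83, still called.

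Cybb, the membrane subunit of the phagocyte oxidase, which makes superoxide after Fc receptor engagement, had means of 1156, 4050 and 528 in syngeneic, allo-WT and allo-MCd mice. It was called higher in allo-WT than syngeneic skin (1.80, adjusted p = 0.000304). Among inhibitory receptors and phosphatases, Siglecf, an inhibitory lectin of eosinophils, had the largest change between allo-WT and syngeneic skin (2.93, adjusted p = 0.00254), and Ptprc, the pan-leukocyte phosphatase that activates Src kinases, rose by 0.84 (adjusted p = 0.0259). The measured Src family kinases of wide expression did not move in this way. Yes1 was called lower in allo-WT than syngeneic skin (-0.54, adjusted p = 0.0252) and differed by 0.50 for allo-MCd minus allo-WT, also called and 1.33 under median scaling. On the deposited scale both calls were lost without allo-WT mouse 1. The former was also lost without allo-WT mouse 2 or syngeneic mouse 3. Fyn was called lower in allo-MCd than syngeneic skin (-0.73, adjusted p = 0.0331), which median scaling did not keep (adjusted p = 0.667). Under median scaling Fyn was instead called higher in allo-MCd than allo-WT skin (0.60, adjusted p = 0.0252) and lower in allo-WT than syngeneic skin (-0.74, adjusted p = 0.0224).

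**Figure D4:**
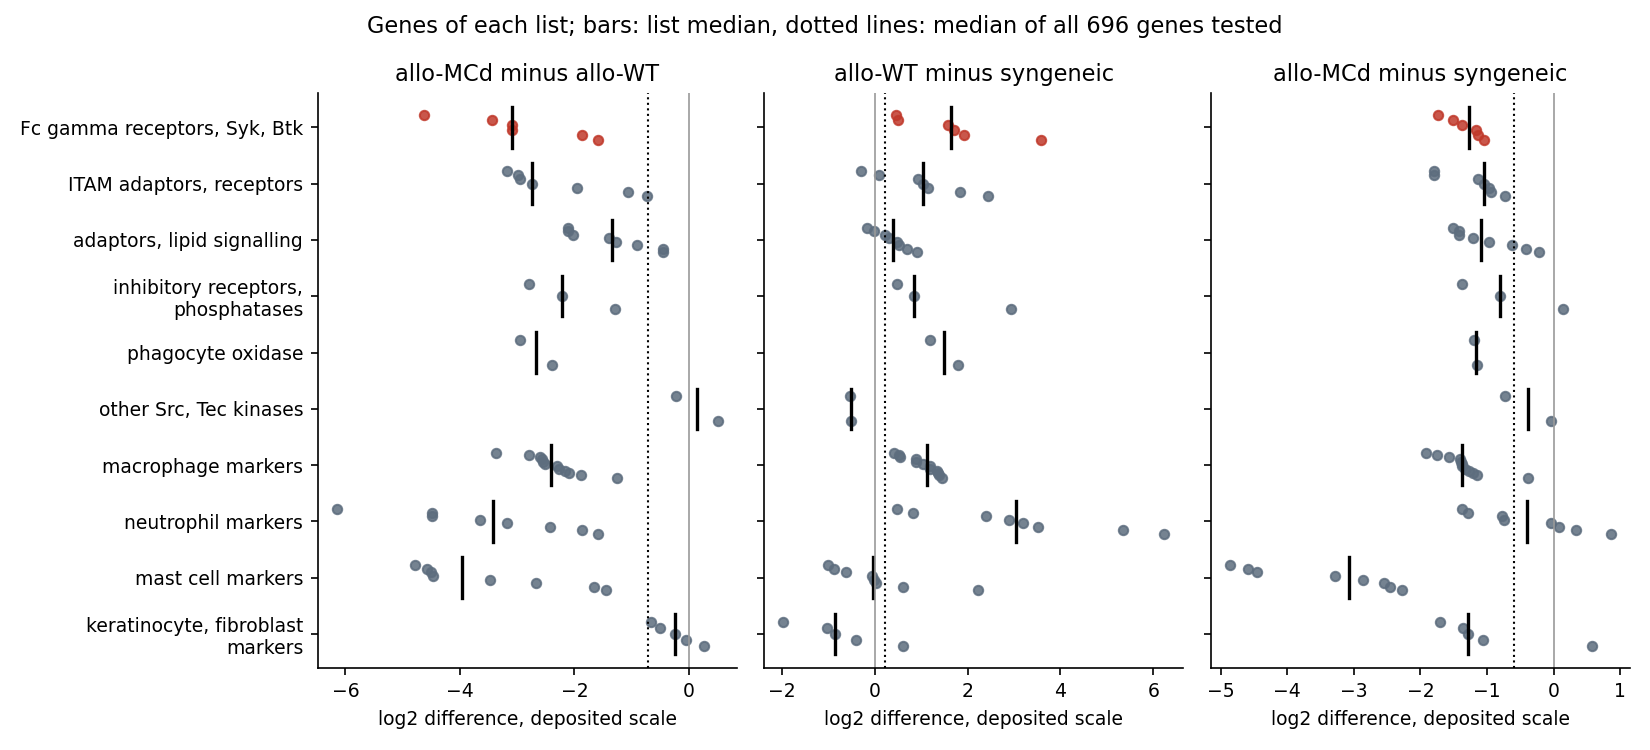
Log2 difference of each tested gene by list, on the deposited scale, with the Fc gamma receptors, Syk and Btk in red. Points are genes, bars are list medians and dotted lines the median of all 696 genes. The member median is -3.09 in the left panel, beside -2.41 for macrophage markers and -3.97 for mast cell markers.

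Markers of the cells that can carry Fc gamma receptors were counted in the same comparisons, and not all of them changed with the members. Of 12 macrophage markers tested, 12 were called lower in allo-MCd than allo-WT skin (11 under median scaling), against 50% of all genes (30.6%). In allo-WT against syngeneic skin 8 were called higher (7 under median scaling), against 28.3% of all genes (25.1%). In allo-MCd against syngeneic skin 11 were called lower (8 under median scaling), against 36.9% of all genes (13.5%). Their summed normalized count ranged from 33658 to 39491 for syngeneic, from 68745 to 92744 for allo-WT and from 10595 to 18320 for allo-MCd mice. None of the 3 ranges overlapped, as for Fcgr1, Fcgr2b, Fcgr3 and Syk. The largest allo-WT means in this sum were those of C1qb (20330), C1qc (16720), C1qa (11410) and Mrc1 (11160). Csf1r, Cd14, Cd163 and Mertk were not called between allo-WT and syngeneic skin, and each overlapped between these groups. All of the 12 macrophage markers but Marco were above background in all allo-MCd mice.

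Of 8 neutrophil markers tested, 8 were called lower in allo-MCd than allo-WT skin (6 under median scaling), against 50% of all genes (30.6%). In allo-WT against syngeneic skin 5 were called higher (5 under median scaling), against 28.3% of all genes (25.1%). For allo-MCd minus syngeneic, 1 of these 8 was called lower (0 under median scaling), with a median difference of -0.40. Of the 6 member genes, 5 were called lower in that comparison (4 under median scaling), against 36.9% of all genes (13.5%). The contrast between markers and members was not tested. The sum over the 11 neutrophil markers measured was 135460, 29972 and 4208 in allo-WT mice 1, 2 and 3, and at most 1290 in every other mouse. S100a8 and S100a9, which inflamed keratinocytes also express, made up most of these allo-WT sums, and the other 9 markers summed to 3810, 1283 and 1128 in the same mice, to 439 to 564 in syngeneic and to 175 to 356 in allo-MCd mice. Fcgr4 was highest in allo-WT mouse 2 and lowest of that group in mouse 3. Syngeneic mouse 2 and allo-MCd mouse 4, where Fcgr4 stood above the group, had neutrophil sums of 885 and 1065, within their groups' ranges of 815 to 1139 and 794 to 1290. In all 5 allo-MCd mice S100a8, S100a9, Csf3r and Mmp9 were above background, and Ly6g, Mpo, Elane, Cxcr1 and Mmp8 were above it in none.

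Of the 8 mast cell markers, 1 was called higher in allo-WT than syngeneic skin (median difference -0.04), against 28.3% of all genes. All 8 were called lower in allo-MCd than allo-WT skin (6 under median scaling), against 50% of all genes (30.6%). All 8 were also called lower in allo-MCd than syngeneic skin (7 under median scaling), against 36.9% of all genes (13.5%). Kit and Ms4a2 were above background in none of the 5 allo-MCd mice. Cpa3, Hdc and Gata2 were above it in all 5 of these mice, Cma1 in 4, and Tpsb2 and Fcer1a in 3. Their sum ranged from 4004 to 9755 for syngeneic, from 2472 to 14952 for allo-WT and from 185 to 704 for allo-MCd mice. The syngeneic and allo-WT ranges overlapped for mast cell markers, whereas the 4 receptors were apart between these groups. Of the B cell markers only Ms4a1 was measured, below the filter for testing, and none of the listed T and NK cell markers or immunoglobulin genes was. Of 5 dendritic cell markers, 2 were called lower in allo-MCd than allo-WT skin (1 under median scaling), near the 50% of all genes (30.6%). None was called higher in allo-WT than syngeneic skin, against 28.3% of all genes, and 1 was called lower under median scaling. In allo-MCd against syngeneic skin 2 were called lower (0 under median scaling), against 36.9% of all genes (13.5%). The 5 keratinocyte and fibroblast genes measured were above background in all 11 mice, as in skin, with sums of 16569 in allo-WT mouse 2 and 39577 to 182330 in the others. Of these 5, 3 were called lower in allo-MCd than syngeneic skin, against 36.9% of all genes, and 1 lower in each other comparison. Their median difference for allo-MCd minus syngeneic was -1.28, beside -1.27 for the members. Under median scaling 0 were lower and 1 higher in that comparison. The part of these cell types in the values of the 6 genes was not tested.

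**Figure D5:**
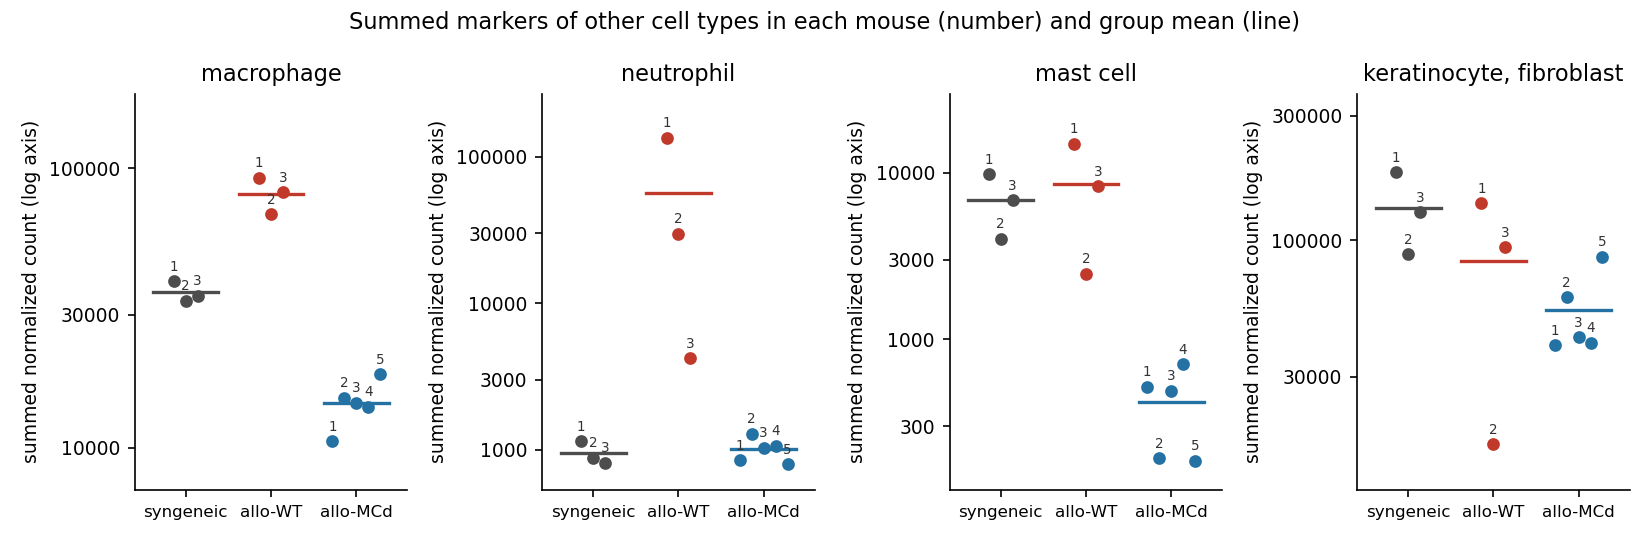
Summed normalized counts of the measured markers of 4 cell types in each mouse, on log axes that differ between panels. Points are mice with their numbers and lines are group means. Macrophage sums are apart between all 3 groups, neutrophil sums of allo-WT mice, mostly S100a8 and S100a9, spread from 4208 to 135460, and the mast cell sums of allo-MCd mice reach at most 704.

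Across the 11 mice, the genes whose values ran most like each member on the log2 scale were named by Pearson correlation, as a description in which all points share the 3 groups and each mouse's scaling factor. Fcgr2b ran most like Mrc1, the mannose receptor of tissue macrophages (r = 0.996, and 0.991 under median scaling), with Cd84, Tlr8 and Cd80 also among its nearest 5. Fcgr3 ran most like Itgb2, the shared chain of leukocyte integrins (r = 0.993), followed by Icos, a costimulatory receptor of T cells (r = 0.992), which came first under median scaling (0.987). Fcgr2b itself stood at 0.989. Fcgr1 ran most like the chemokine receptor Ccr1 (r = 0.981), and then Usp18, an interferon-induced gene, C3ar1, Ctss and Tlr1. Under median scaling the interferon-induced Isg15 and Mx2 also came among its nearest 5, at 0.953 each. Fcgr4 ran most like Itgal (r = 0.969), with Il21r, Ccl3, Fpr2 and Psme2 next. Btk and Syk ran alike (r = 0.976, and 0.904 under median scaling), both near Selplg and Alox5ap, and Btk most like Plau (r = 0.987), and under median scaling most like Alox5ap (0.960).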

How the data were processed

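RNA of 11 skin samples was measured with NanoString probes. The deposited values are a linear signal, counts that the authors normalized in nSolver; the software's version and settings are not given in the sources used here. The table held 754 genes and, as raw counts, 6 positive and 8 negative controls. Whole counts were recovered from 1 factor per mouse, within 0.011 of a multiple for at least 99.87% of values. Background was set 2 SD above the mean negative control.

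After 20 housekeeping genes were set aside, genes that reached 20 in 3 or more mice were tested in limma 3.58.1 (R 4.3.3) with an intensity trend, all 3 groups in 1 fit and no covariate, on log2(value + 1), with Benjamini-Hochberg adjustment over all genes tested and a threshold of 0.05. Folds are on this scale, which understates changes of low genes. Two-sided exact permutation tests used the absolute difference in mean log2 value or ratio. The fit was tested on simulated data. The methods' test is a 3-group test with Tukey's comparison on the deposited values. Tables were made in Python 3.11.15 (pandas 2.3.3, numpy 2.4.6, scipy 1.17.1) and plots in matplotlib 3.10.9.

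The members and gene lists were chosen with earlier results of these data known. All members were named. Of the lists, up to 3 called genes with the largest change were named, with marker genes; others named from the pathway, and the correlates of Fcgr2b, Fcgr3, Fcgr4 and Syk, were added after their values were seen. Promoter windows are RefSeq's, and all 6 members matched by symbol. Protein, histology and qPCR data are not analysed here. A result that needs a withheld item is not reported here.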

Additional observations from a re-analysis of the deposited data

Results flagged for a closer look

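In the allo-MCd group, the 1 group large enough for this check, the gap between an extreme mouse and its nearest neighbour, as a share of the group's range, was compared with Dixon's critical value of 0.71, which chance passes in about 1 in 20 sets; 6 of 24 sets of values checked passed it. Mouse 5 stood highest for Btk (0.864, and 0.751 under median scaling) and for Fcgr3 (0.774). Mouse 4 stood highest for Fcgr4 (0.742, and 0.736 under median scaling) and for the log2 ratio of Fcgr3 to Fcgr2b (0.732). These values share mice and genes, and so are not separate observations.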

How the results depend on the processing

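The member counts called were 6, 4 and 5 for allo-MCd minus allo-WT, allo-WT minus syngeneic and allo-MCd minus syngeneic. The last was 3 under quantile normalization and 1 by the methods' test, with or without Benjamini-Hochberg adjustment. Of the values of single members under other settings, 335 kept direction and call, 11 lost the call, all in allo-MCd minus syngeneic, 2 gained it and none reversed. Of the 100 values of the ratios over Fcgr2b and of Btk to Syk, 98 kept direction, and none of these differences passed the test. Without allo-WT mouse 3, allo-WT minus syngeneic turned from -0.13 to 0.10 for Fcgr3/Fcgr2b (-0.30 to 0.10 over mice left out) and from 0.06 to -0.0749 for Btk/Syk (-0.0749 to 0.23). Of 200 values of the receptor to kinase ratios, 10 turned, all in allo-MCd minus syngeneic with a mouse left out, where the ranges were -0.27 to 0.11 for Fcgr1/Syk, -0.0674 to 0.45 for Fcgr1/Btk, -0.29 to 0.73 for Fcgr4/Syk and -0.0602 to 1.00 for Fcgr4/Btk. The count of other pathway genes for allo-WT minus syngeneic was 7 by the methods' test with adjustment and 4 to 9 with a mouse left out. For allo-MCd minus syngeneic it was 10 by the methods' test and 2 with adjustment, 9 under quantile normalization, 10 under median scaling, and 11 to 19 with a mouse left out; the cause was not tested. Mouse numbers are shared between groups without a stated pairing, and same-numbered mice had correlations of deviations from -0.112 to 0.211. With the number as a replicate block the members called were 6, 4 and 6, where Fcgr4 passed in allo-MCd minus syngeneic (-1.32, adjusted p = 0.0386), and the other pathway genes 21, 10 and 17. On recovered counts voom was run, calling 6, 4 and 5 members, and the edgeR test was not; the ratios over Fcer1g and Lyn were not run. Values of Trem1 in syngeneic and allo-MCd mice and of Kit in allo-MCd mice lie at background, which limits their folds.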
